A study of Mus musculus with 6 samples.

Results

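The striatum is the largest nucleus of the forebrain, and most of its cells are medium spiny neurons, the inhibitory projection neurons of the basal ganglia. Medium spiny neurons of the direct pathway carry the D1 dopamine receptor together with the peptides dynorphin and substance P, and those of the indirect pathway carry the D2 dopamine receptor, an adenosine receptor and enkephalin. Both kinds share a signalling chain in which a G protein named Golf drives adenylyl cyclase 5, cyclic AMP activates protein kinase A, and phosphodiesterases break the cyclic AMP down. The 34 genes described here were listed by name as markers of these neurons, and all 34 were found among the 35523 genes with a deposited value and among the 17096 that had enough counts to be tested. By role they were 5 genes of the direct pathway, 5 of the indirect pathway, 11 of the shared signalling chain, 4 further transcription factors and 9 other receptors, channel subunits and cytoskeletal proteins.

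RNA-Seq was carried out on the whole forebrain at postnatal day 20 (P20) of 3 *Slc13a4*+/- mice (Nas2Del_Het_1024, Nas2Del_Het_1025 and Nas2Del_Het_1027) and of 3 wild-type mice (Nas2Del_WT_1016, Nas2Del_WT_1018 and Nas2Del_WT_1026), and values per mouse are given in this order throughout. All were on a C57BL/6 background. The *Slc13a4*+/- mice came from crosses of heterozygous males with wild-type females and lack 1 allele of a sodium-coupled sulfate transporter, and the paper describes the wild-type mice as littermates. The sources used here give neither the deleted stretch of the gene nor the sex and litter of each mouse. Because the tissue was not sorted, a level is an average over all forebrain cells, and fewer striatal neurons cannot be told apart from less RNA per neuron. The question asked here was whether the genes of these neurons differed between the genotypes, and whether they moved together from mouse to mouse.

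Library totals, as sums of estimated counts, ran between 69260309 and 78070813 for *Slc13a4*+/- and between 60340337 and 80410582 for wild-type. *Slc13a4* had 5.6, 6.57 and 5.41 CPM in the *Slc13a4*+/- mice, against 10.4, 9.36 and 8.23 CPM in the wild-type mice, so every *Slc13a4*+/- value lay below every wild-type value (CPM are counts scaled to library size after TMM normalization). This check of the genotypes gave a log2 fold change of -0.67 (SE 0.11), which DESeq2 called (adjusted p = 0.0024) and edgeR did not (adjusted p = 0.499). Wild-type mouse Nas2Del_WT_1026 stood apart from the other wild-type mice. The chi-square per gene between its counts and those of Nas2Del_WT_1016 and Nas2Del_WT_1018 was 39.4 and 33.8, against 7.0 between Nas2Del_WT_1016 and Nas2Del_WT_1018 and 13.95 to 22.1 between mice of different genotype. Wild-type mouse Nas2Del_WT_1016 alone had the Y-linked gene *Ddx3y*, at 105 CPM, and the others had at most 0.033. The genotypes were thus not matched for Y-linked expression, and no fit had sex as a covariate. Annotated retained-intron transcripts held 2.02% to 2.44% of the counts for *Slc13a4*+/- and 1.80% to 2.0% for wild-type, and leaving these transcripts out added no call among the 34 genes.

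The genes were placed by the GENCODE M21 annotation of GRCm38. Among them, *Drd1* lies at chr13:54051183-54055705 on the minus strand, *Drd2* at chr9:49340627-49408177 on the plus strand, *Penk* at chr4:4133531-4138819 on the minus strand, *Tac1* at chr6:7554879-7565834 on the plus strand and *Pde10a* at chr17:8525372-8986648 on the plus strand. Dopamine acts on these neurons through cyclic AMP, and the factor CREB binds the cyclic AMP response element, so the 250 bases before the RefSeq start of transcription (GRCm38.p6) were searched for it on both strands. RefSeq promoters were matched by symbol for 27 of the 34 genes (49 starts). The full element, TGACGTCA, was in 1 of the 49 windows, that of *Gpr6*, and in 1.55% of all 32851 promoters. Its 5-base core, TGACG, which is contained in the full element, was in 7 of the 49 windows, belonging to *Arpp21*, *Foxp1*, *Gng7*, *Gpr6*, *Isl1* and *Tac1*, and in 17.8% of all promoters. Windows of 3 genes are shown: *Gpr6* as the only one with the full element, *Drd2* as a receptor on which dopamine acts, and *Rgs9* as the gene with the smallest p below. They are *Gpr6* (indirect pathway, chr10:41072291-41072540, minus strand), *Drd2* (indirect pathway, chr9:49340153-49340402, plus strand) and *Rgs9* (shared signalling, chr11:109298182-109298431, minus strand), each read 5′ to 3′ along the gene, with the core on either strand in capitals.
Gpr6: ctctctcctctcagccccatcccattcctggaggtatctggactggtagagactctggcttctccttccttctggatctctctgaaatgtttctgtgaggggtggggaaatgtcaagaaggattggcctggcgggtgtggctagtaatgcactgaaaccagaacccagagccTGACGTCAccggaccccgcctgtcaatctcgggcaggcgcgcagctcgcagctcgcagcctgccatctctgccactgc
Drd2: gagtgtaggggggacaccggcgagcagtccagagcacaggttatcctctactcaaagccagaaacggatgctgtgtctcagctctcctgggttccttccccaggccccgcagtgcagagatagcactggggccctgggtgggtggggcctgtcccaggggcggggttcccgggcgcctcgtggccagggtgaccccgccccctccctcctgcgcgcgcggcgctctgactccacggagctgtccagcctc
Rgs9: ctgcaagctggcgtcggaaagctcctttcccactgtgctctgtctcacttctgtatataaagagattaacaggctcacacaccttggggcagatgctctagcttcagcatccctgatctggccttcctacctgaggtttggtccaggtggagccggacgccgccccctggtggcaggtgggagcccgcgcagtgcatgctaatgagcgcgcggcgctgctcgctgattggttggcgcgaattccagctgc
The palindromic full element of *Gpr6* holds the core once on each strand. *Drd2* and *Rgs9* held none in this window. These matches describe letters in the reference sequence only.

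The P20 forebrain contained transcripts of all 34 genes, and their levels spanned a wide range. In TPM, which is scaled by transcript length and so allows genes to be compared, *Arpp21* was highest at 493 ± 35.8 TPM (SD, n = 6 mice), closely followed by *Arpp19* at 480 ± 13.6, and this pair did not differ beyond its spread. Both encode small phosphoproteins regulated by cyclic AMP, and *Arpp19* is used by dividing and non-dividing cells well outside the striatum. *Penk*, the precursor of enkephalin, followed at 305 ± 14.2 TPM (SD, n = 6), then *Ppp1r1b*, which encodes DARPP-32, the phosphatase inhibitor that dopamine regulates in these neurons, at 230 ± 17.8. *Pde1b*, a calmodulin-dependent phosphodiesterase, had 185 ± 9.55 TPM, *Gnal*, the alpha subunit of Golf, 129 ± 7.6, and *Tac1*, the precursor of substance P, 123 ± 4.92 (SD, n = 6 each), and the means of *Gnal* and *Tac1* differed by less than the SD of *Gnal*. At the low end were *Gpr149* with 2.54 ± 0.34 TPM, *Six3* with 1.82 ± 0.09 and *Drd3* with 0.822 ± 0.17 (SD, n = 6 each). *Drd3*, a dopamine receptor of the ventral striatum, rested on 28 to 54 counts per mouse, and each of the other 33 genes had at least 100 counts in every mouse. A gene's TPM is the sum over its transcripts, short and intron-retaining ones included, so the order depends on how the estimates divide reads between them.

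No gene of the list was called different between the genotypes at an adjusted p under 0.1, the threshold of the paper. The quasi-likelihood test of edgeR called 0 of the 34, against 1 of 17096 genes in all (0.00585%), with the smallest adjusted p at 0.527 for *Rgs9*. The Wald test of DESeq2, with average transcript lengths as offsets, called 0 of the 34, against 86 of 17659 (0.487%), with the smallest adjusted p at 0.466 for *Pde10a*. Before adjustment, 1 of the 34 (*Rgs9*) had a p under 0.05 in edgeR, against 9.15% of all genes tested. Every *Slc13a4*+/- value was above every wild-type value for 2 of the 34 genes, against 7.26% of all genes, and all below for 1 of the 34, against 7.7% of all genes. These shares are at or below the background. The log2 fold changes ran between -0.12 (*Sh3rf2*) and 0.29 (*Drd3*), with 25 above 0 and 9 below, and their median was 0.04, beside -0.0045 over all genes tested.

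The absence of calls in edgeR came with narrow intervals for most genes. The standard error of the edgeR log2 fold change was between 0.04 and 0.22, with a median of 0.07. For 26 of the 34 genes the 95% interval from the quasi-likelihood fit lay wholly within a 1.2-fold change in either direction, the size the paper used to stratify its genes, and for 33 it lay within 1.3-fold. The exception at 1.3-fold was *Drd3*, with an interval of -0.22 to 0.80. In DESeq2 with length offsets the standard error was larger for most genes, such as *Six3* (0.19, against 0.11 in edgeR) and *Gpr149* (0.16, against 0.09). It was smaller for *Pde10a* and *Ppp1r1b*. Intervals from DESeq2 were not computed, so these counts hold for edgeR only. The intervals rest on the spread between these 3 mice of each genotype, and the separate animals are the replicates. The fit also moderated each gene's variance with that of all genes tested, which adds information beyond the gene's own mice. An interval from a gene's own mice alone was not computed.

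**Figure D1:**
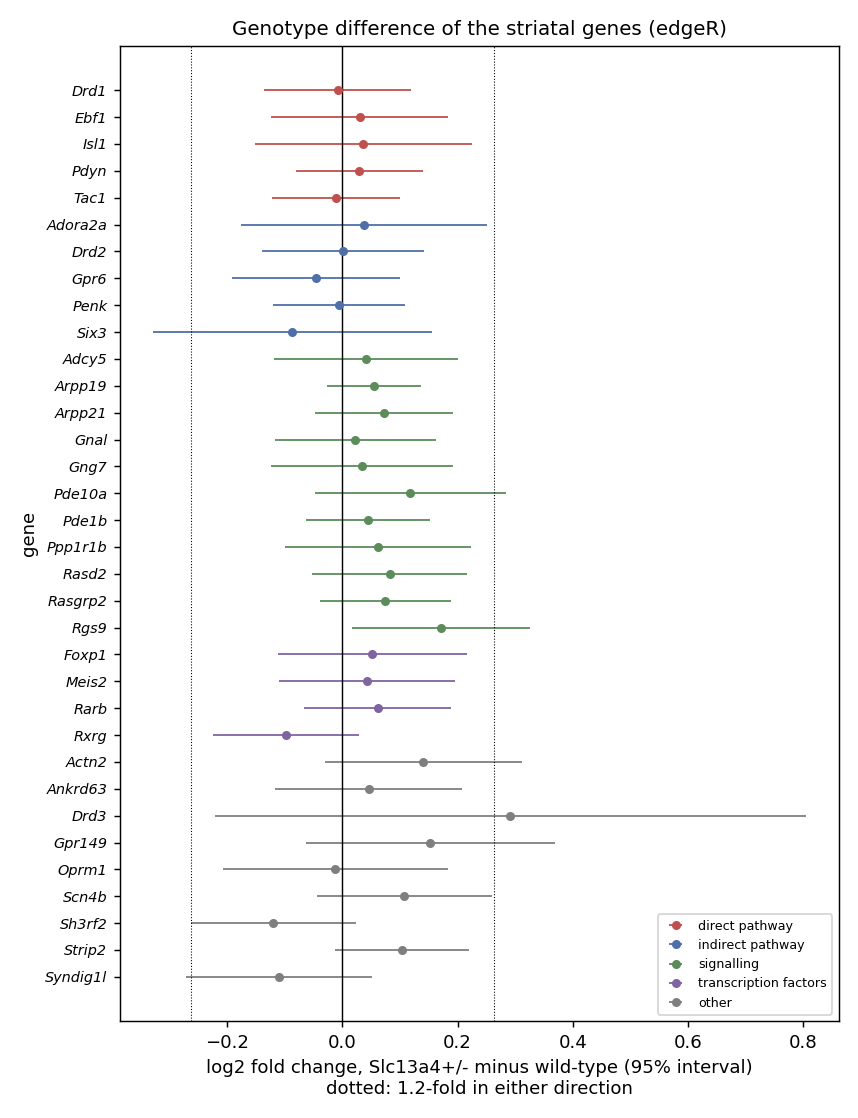
Log2 fold change of each of the 34 genes, *Slc13a4*+/- minus wild-type, from edgeR (x axis), with genes by role on the y axis; points are estimates, bars are 95% intervals and dotted lines mark a 1.2-fold change in either direction. The interval of *Rgs9*, 0.02 to 0.33, is the only one that does not cross 0, at an adjusted p of 0.527, and that of *Drd3* is the widest.

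Genes of the direct pathway had overlapping levels in both genotypes. *Drd1*, the dopamine receptor that stimulates cyclic AMP production, had 63.3, 57.9 and 63.5 CPM in the *Slc13a4*+/- mice, against 61.9, 58.2 and 65.6 CPM in the wild-type mice. The groups overlapped in part, with Nas2Del_Het_1025 lowest and Nas2Del_WT_1026 highest, and the log2 fold change was -0.01 (SE 0.06, 95% interval -0.14 to 0.12, edgeR adjusted p = 0.976). *Tac1* had 48.7, 44.2 and 49.8 CPM in the *Slc13a4*+/- mice, against 48.5, 47.4 and 47.8 CPM in the wild-type mice. The wild-type values lay within the *Slc13a4*+/- range, with a log2 fold change of -0.01 (SE 0.05). *Pdyn*, the precursor of dynorphin, had 31.6, 30.4 and 31.5 CPM in the *Slc13a4*+/- mice, against 28.6, 30.7 and 32.2 CPM in the wild-type mice, with a log2 fold change of 0.03 (SE 0.05). The *Slc13a4*+/- values lay inside the wild-type range. *Isl1* and *Ebf1*, transcription factors of differentiating direct-pathway neurons, were expressed far lower, at 5.54 ± 0.70 and 3.62 ± 0.40 TPM (SD, n = 6 each), with log2 fold changes of 0.04 (SE 0.08) and 0.03 (SE 0.07). *Isl1* is also made by the cholinergic interneurons of the striatum.

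Genes of the indirect pathway also overlapped between the genotypes. *Drd2*, the dopamine receptor that inhibits cyclic AMP production, had 20.6, 18.3 and 18.8 CPM in the *Slc13a4*+/- mice, against 19.8, 17.9 and 19.9 CPM in the wild-type mice. This gave a log2 fold change of 0.00 (SE 0.06, 95% interval -0.14 to 0.14, edgeR adjusted p = 0.996). *Penk* had 147, 138 and 141 CPM in the *Slc13a4*+/- mice, against 140, 136 and 152 CPM in the wild-type mice, and a log2 fold change of -0.01 (SE 0.05). In both genes the 2 ends of the wild-type range were set by mice Nas2Del_WT_1018 and Nas2Del_WT_1026. The same mice bounded *Adora2a*, the adenosine receptor of these neurons, which had 36.6, 31.3 and 34.5 CPM in the *Slc13a4*+/- mice, against 33.6, 28.6 and 37.4 CPM in the wild-type mice, with a log2 fold change of 0.04 (SE 0.09). *Gpr6*, an orphan receptor that raises cyclic AMP, and *Six3*, a transcription factor needed for D2 neurons, had log2 fold changes of -0.05 (SE 0.06) and -0.09 (SE 0.11).

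**Figure D2:**
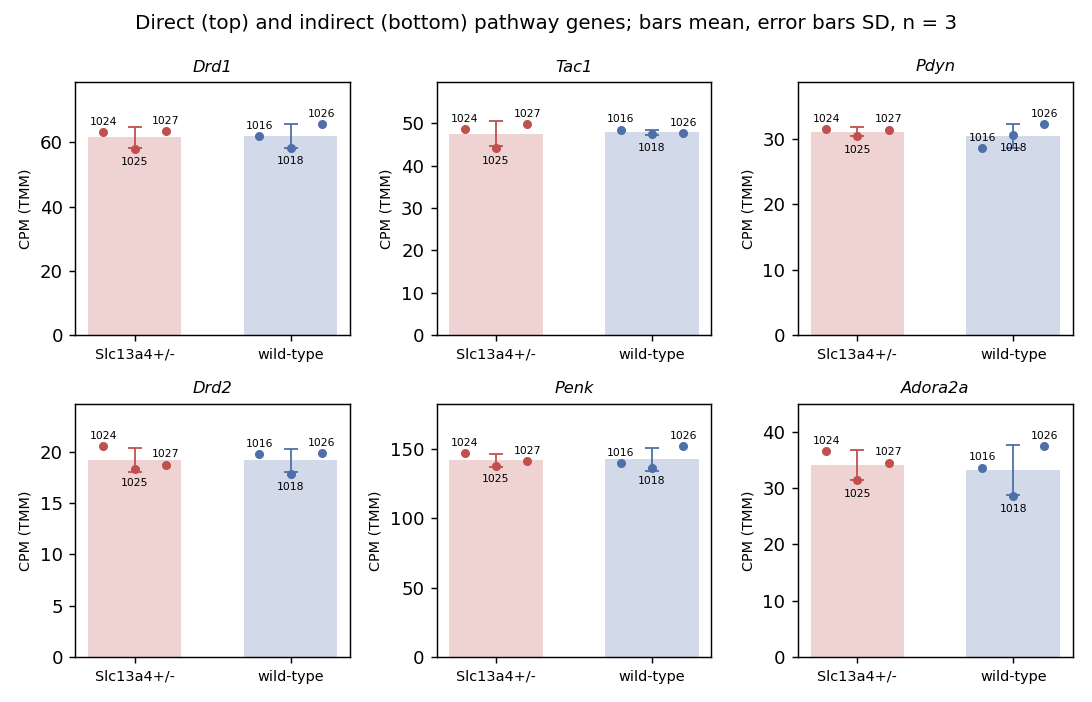
CPM after TMM normalization (y axis) of 3 genes of the direct pathway (top row) and 3 of the indirect pathway (bottom row) in *Slc13a4*+/- (left) and wild-type (right) mice; points are mice with their numbers, bars show the mean with SD as error bars (n = 3 each). The genotypes overlap in all 6 genes.

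The balance of the pathways did not separate the genotypes. The ratio of *Drd1* to *Drd2* in TPM was 3.08, 3.15 and 3.33 in the *Slc13a4*+/- mice, against 3.18, 3.06 and 3.38 in the wild-type mice. The ratio of *Tac1* to *Penk* was 0.391, 0.387 and 0.420 in the *Slc13a4*+/- mice, against 0.411, 0.431 and 0.374 in the wild-type mice. That of *Pdyn* to *Penk* averaged 0.0982 ± 0.0013 in *Slc13a4*+/-, against 0.0954 ± 0.0044 in wild-type (SD, n = 3 each). The ratio of *Drd1* to *Adora2a* was 1.29, 1.39 and 1.29 in the *Slc13a4*+/- mice, against 1.37, 1.47 and 1.43 in the wild-type mice. The genotypes overlapped in each of these 4 ratios.

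Among the shared signalling genes, all 11 had log2 fold changes above 0, from 0.02 to 0.17, with a median of 0.06, and none was called. The direction rested on few mice: with the run of animal numbers as a covariate 7 of the 11 were below 0 (*Pde10a*, *Pde1b*, *Gng7*, *Gnal*, *Adcy5*, *Rasd2* and *Arpp21*), and without Nas2Del_WT_1018 4 were (*Ppp1r1b*, *Gng7*, *Gnal* and *Adcy5*). *Rgs9*, which speeds the shut-off of G protein signals downstream of dopamine receptors, had the largest. It had 59.6, 53.1 and 58.2 CPM in the *Slc13a4*+/- mice, against 52.1, 45.8 and 53.7 CPM in the wild-type mice. Mouse Nas2Del_Het_1025 lay just below wild-type mouse Nas2Del_WT_1026, so the groups overlapped, and the log2 fold change was 0.17 (SE 0.07, edgeR adjusted p = 0.527, DESeq2 adjusted p = 0.715). *Pde10a*, the phosphodiesterase most typical of these neurons, had 310, 307 and 303 CPM in the *Slc13a4*+/- mice, against 278, 252 and 316 CPM in the wild-type mice. The *Slc13a4*+/- mice lay close together and the wild-type mice lay on either side of them, with a log2 fold change of 0.12 (SE 0.07, edgeR adjusted p = 0.641). *Ppp1r1b* had 174, 161 and 167 CPM in the *Slc13a4*+/- mice, against 172, 142 and 167 CPM in the wild-type mice, where mouse Nas2Del_WT_1018 was the low value. *Adcy5*, the main adenylyl cyclase of the striatum, had 304, 291 and 306 CPM in the *Slc13a4*+/- mice, against 298, 259 and 319 CPM in the wild-type mice. Here too mice Nas2Del_WT_1018 and Nas2Del_WT_1026 marked the ends, and the log2 fold change was 0.04 (SE 0.07).

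The other signalling genes had log2 fold changes of 0.08 or less. *Gnal* had a log2 fold change of 0.02 (SE 0.06), *Gng7*, a gamma subunit that pairs with Golf, 0.03 (SE 0.07), and *Pde1b* 0.04 (SE 0.05). *Rasd2*, which encodes the small GTPase Rhes, had 0.08 (SE 0.06), and *Rasgrp2*, an exchange factor for Rap proteins, had 0.07 (SE 0.05). *Arpp21* had 0.07 (SE 0.05). *Arpp19* was 1 of the 2 genes with every *Slc13a4*+/- value above every wild-type value, at 343, 327 and 336 CPM in the *Slc13a4*+/- mice, against 321, 322 and 326 CPM in the wild-type mice. The gap between the groups was under 1 CPM, the log2 fold change was 0.05 (SE 0.04, edgeR adjusted p = 0.659), and it was 0.01 in DESeq2 with length offsets.

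Of the further transcription factors, *Foxp1*, *Rarb* and *Meis2* had log2 fold changes of 0.05 (SE 0.07), 0.06 (SE 0.06) and 0.04 (SE 0.07). *Rxrg*, a retinoid receptor that partners *Rarb*, had 15.1, 15.7 and 15.6 CPM in the *Slc13a4*+/- mice, against 17.7, 15.6 and 16.3 CPM in the wild-type mice. This gave a log2 fold change of -0.10 (SE 0.06, edgeR adjusted p = 0.623). Wild-type mouse Nas2Del_WT_1018 lay inside the *Slc13a4*+/- range. *Foxp1* and *Meis2* are also made in the cortex and elsewhere in the forebrain, so their levels are not a measure of striatal neurons alone.

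In the remaining group, *Sh3rf2*, a scaffold protein with SH3 domains, was the 1 gene with every *Slc13a4*+/- value below every wild-type value. It had 7.69, 8.17 and 8.06 CPM in the *Slc13a4*+/- mice, against 8.49, 8.42 and 9.07 CPM in the wild-type mice, with a log2 fold change of -0.12 (SE 0.06, edgeR adjusted p = 0.600, DESeq2 adjusted p = 0.911). *Gpr149*, an orphan receptor, had 5.33, 4.60 and 4.61 CPM in the *Slc13a4*+/- mice, against 4.49, 4.0 and 4.58 CPM in the wild-type mice, again without overlap. Its log2 fold change was 0.15 (SE 0.09, edgeR adjusted p = 0.641) but -0.07 in DESeq2 with length offsets. Its 1 annotated retained-intron transcript held 41.9% of the TPM of *Gpr149* in Nas2Del_WT_1018 and was listed at 0 in the other mice. That share rested on 21.7 estimated counts of a 708-base transcript, beside 219.8 of the 4222-base coding transcript *Gpr149-201*. *Drd3* had 0.566, 0.767 and 0.709 CPM in the *Slc13a4*+/- mice, against 0.496, 0.463 and 0.692 CPM in the wild-type mice, and the groups overlapped. *Scn4b*, a beta subunit of sodium channels that is abundant in these neurons, had a log2 fold change of 0.11 (SE 0.07), *Strip2* 0.10 (SE 0.05) and *Actn2*, an actin cross-linker of dendritic spines, 0.14 (SE 0.07). *Oprm1*, the mu opioid receptor of striatal patches, had -0.01 (SE 0.09), *Ankrd63* 0.05 (SE 0.07) and *Syndig1l* -0.11 (SE 0.07).

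The genes moved together from mouse to mouse, and the wild-type mice Nas2Del_WT_1018 and Nas2Del_WT_1026 marked the extremes. For each gene the deviation of a mouse was taken as its log2 CPM minus the mean over the 6 mice. The median deviation over the 34 genes was 0.04, -0.01 and 0.03 in the *Slc13a4*+/- mice, against -0.02, -0.10 and 0.08 in the wild-type mice. The *Slc13a4*+/- mice thus lay between 2 wild-type mice. Mouse Nas2Del_WT_1018 had the lowest value of the 6 for 21 of the 34 genes (61.8%), against 17.5% of all genes tested, and the highest for 0 of them. Mouse Nas2Del_WT_1026 had the highest value for 17 of the 34 (50.0%), against 21.8% of all genes tested, and the lowest for 0. The median deviation over all genes tested was 0.00 in each mouse.

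**Figure D3:**
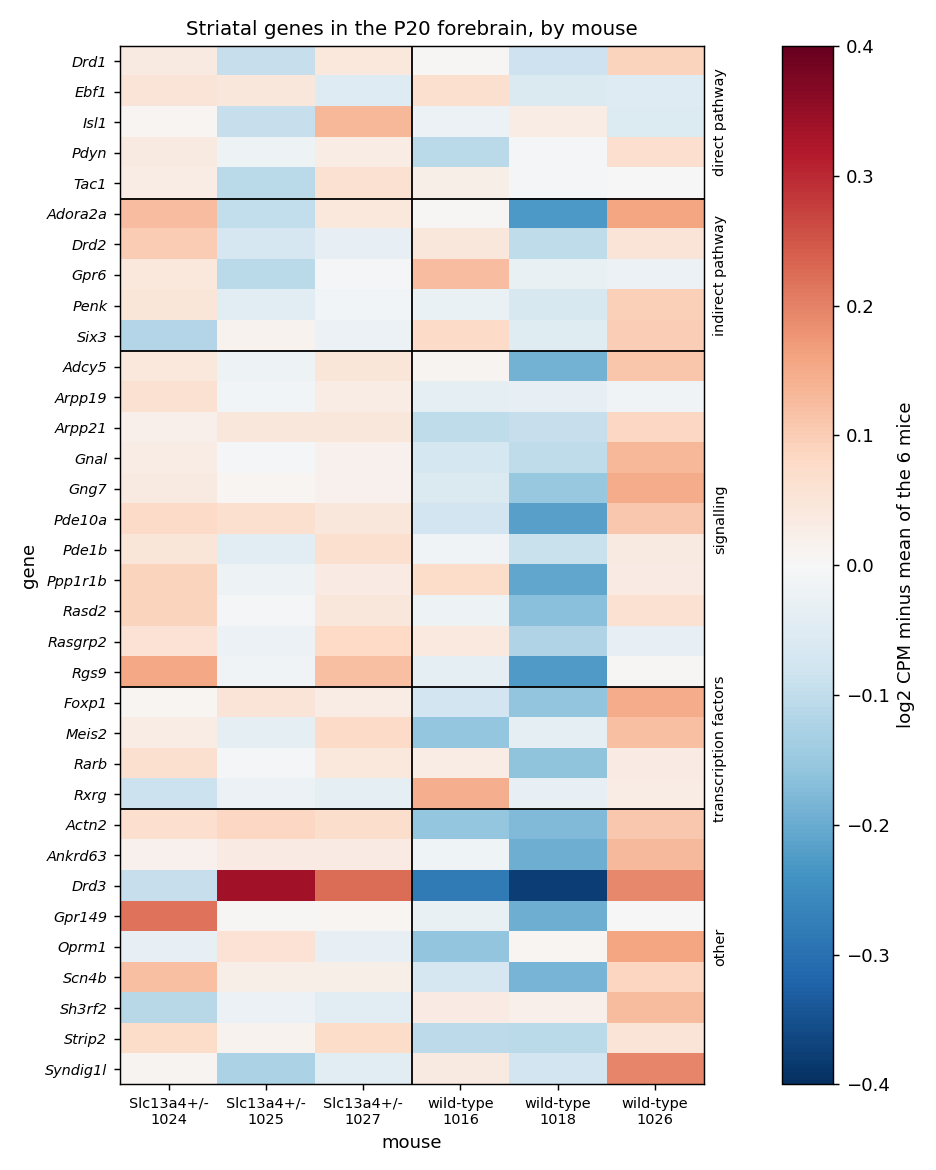
Deviation of log2 CPM from the mean of the 6 mice (colour) for each of the 34 genes (rows, by role) in each mouse (columns, *Slc13a4*+/- left and wild-type right). Blue runs down the column of wild-type mouse Nas2Del_WT_1018, the lowest mouse for 21 genes, and red down that of wild-type mouse Nas2Del_WT_1026, the highest for 17.

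How closely a gene followed the rest was described by its Pearson correlation with the median deviation of the other 33 genes over the 6 mice. All genes of a mouse come from 1 library, and the values are a description with no p. The median r over the 34 genes was 0.78, and 16 of the 34 (47.1%) had an r over 0.8, against 6.10% of the other genes tested, whose median r with the 34-gene profile was -0.02. The highest were *Gng7* (0.96), *Adcy5* (0.96), *Adora2a* (0.95), *Ankrd63* (0.93), *Rasd2* (0.93), *Gnal* (0.93), *Scn4b* (0.92) and *Pde10a* (0.92). By role, 7 of the 11 signalling genes and 9 of the other 23 had an r over 0.8, and the signalling genes *Arpp19* and *Rasgrp2* had 0.52 and 0.56. *Drd1* (0.83) and *Penk* (0.87) followed more closely than *Drd2* (0.69) and *Pdyn* (0.57). *Tac1* had 0.25, *Six3* 0.20, *Sh3rf2* 0.06 and *Gpr6* 0.04. The values were below 0 for 3 genes, *Ebf1* (-0.02), *Isl1* (-0.07) and *Rxrg* (-0.07). *Gpr6* and *Rxrg* were highest in wild-type mouse Nas2Del_WT_1016 instead, and *Isl1* in *Slc13a4*+/- mouse Nas2Del_Het_1027.

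A step set up after the data were seen subtracted from each gene the median deviation of the other genes of the list, so that a gene could be read relative to the striatal genes as a whole. All *Slc13a4*+/- values then lay above all wild-type values for 3 of the 34 (*Rgs9*, *Rasd2* and *Strip2*), against 3.29% of all genes tested. They lay below for 2 (*Syndig1l* and *Sh3rf2*), against 5.78%. Genes outside the list had the median of all 34 genes subtracted, which most of them did not follow. The shares over all genes were 7.26% above and 7.7% below before the step. The shares after it are therefore not a like background for the 34 genes, and no excess is read from them. *Rgs9* had 0.11, -0.00 and 0.09 in the *Slc13a4*+/- mice, against -0.02, -0.13 and -0.08 in the wild-type mice, on the log2 scale. *Syndig1l* had -0.03, -0.12 and -0.07 in the *Slc13a4*+/- mice, against 0.06, 0.03 and 0.11 in the wild-type mice. For *Rasd2* the groups came within 0.01 of one another.

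Marker genes of other regions and cell types were read in the same mice. The 9 markers of cortical excitatory neurons had a median deviation of -0.02, 0.02 and 0.02 in the *Slc13a4*+/- mice, against -0.00, -0.12 and 0.08 in the wild-type mice. This median was also lowest in Nas2Del_WT_1018 and highest in Nas2Del_WT_1026. Single cortical markers were mixed: *Neurod6* was highest in Nas2Del_WT_1018, and *Fezf2* and *Emx1* were highest in Nas2Del_WT_1016. Another 25 genes enriched in striatal neurons, such as *Bcl11b*, had 0.00, -0.02 and 0.04 in the *Slc13a4*+/- mice, against -0.01, -0.06 and 0.08 in the wild-type mice. The 11 hypothalamic markers ran the other way in the same wild-type mice, with -0.08, -0.02 and 0.00 in the *Slc13a4*+/- mice, against 0.15, 0.19 and -0.17 in the wild-type mice. The 5 markers of dopamine neurons also ran the other way and further, with -0.13, 0.12 and 0.03 in the *Slc13a4*+/- mice, against 0.19, 0.48 and -0.55 in the wild-type mice, and 4 of the 5 were highest in Nas2Del_WT_1018 and lowest in Nas2Del_WT_1026. The 7 oligodendrocyte markers had -0.01, 0.01 and -0.21 in the *Slc13a4*+/- mice, against 0.13, 0.13 and -0.04 in the wild-type mice. General neuronal genes (6 genes) moved less, with 0.01, -0.01 and 0.00 in the *Slc13a4*+/- mice, against -0.03, -0.01 and 0.06 in the wild-type mice. The median of the cortical markers thus shared the extremes of the striatal median, while single cortical markers did not all do so. The part that the levels of these other markers have in the striatal values was not tested.

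**Figure D4:**
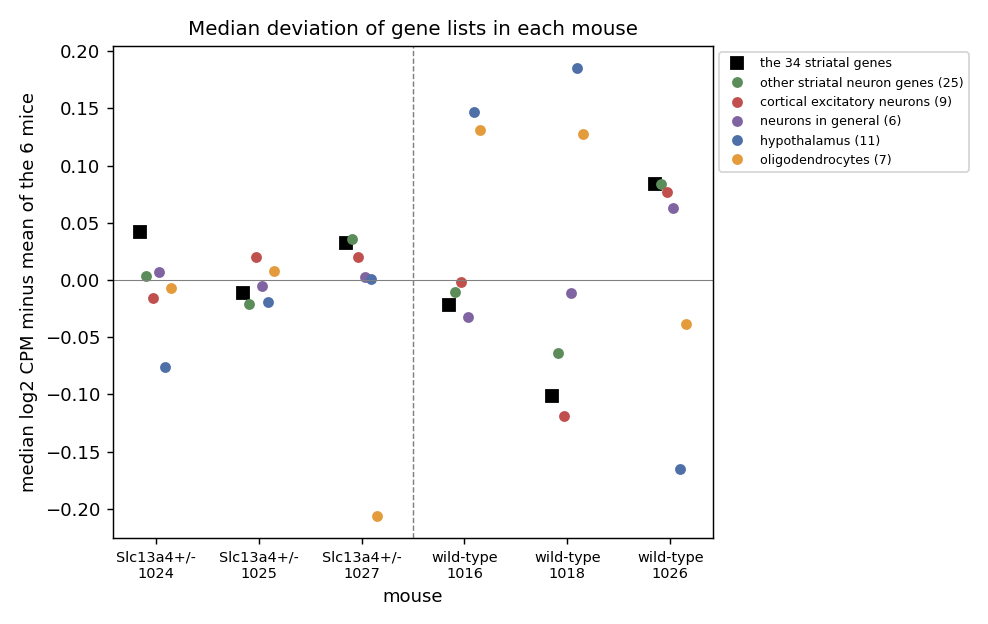
Median deviation of log2 CPM from the mean of the 6 mice (y axis) for the 34 striatal genes (black squares) and for 5 other gene lists (coloured points) in each mouse, *Slc13a4*+/- left of the dashed line and wild-type right of it. The striatal and cortical lists are lowest in wild-type mouse Nas2Del_WT_1018 and highest in Nas2Del_WT_1026, and the hypothalamic list is highest in Nas2Del_WT_1018 and lowest in Nas2Del_WT_1026.

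By summed level, the cortical markers had 1266 to 1339 CPM for *Slc13a4*+/- against 1189 to 1373 CPM for wild-type, and the hypothalamic markers 53.9 to 57.8 CPM for *Slc13a4*+/- against 46.9 to 61.4 CPM for wild-type. No marker of these lists was at 0 in any mouse. The 8 markers of striatal interneurons, among them *Chat* and *Sst*, summed to 273 to 292 CPM for *Slc13a4*+/- against 289 to 293 CPM for wild-type. The olfactory bulb markers (4 genes) summed to 8.12 to 12.2 CPM for *Slc13a4*+/- against 8.61 to 17.5 CPM for wild-type. The 7 markers of the choroid plexus had 391 to 454 CPM for *Slc13a4*+/- against 473 to 480 CPM for wild-type, and the 7 microglial markers 306 to 316 CPM for *Slc13a4*+/- against 331 to 335 CPM for wild-type. The 6 hippocampal markers had 116 to 122 CPM for *Slc13a4*+/- against 124 to 129.6 CPM for wild-type. These 3 sums did not overlap between the genotypes, and the sums of the other lists overlapped. Of single genes tested 7.7% lay all below, and no such share was taken for sums of lists. A sum follows its highest genes: *Ttr* alone had 353 to 412 CPM for *Slc13a4*+/- against 430 to 437 CPM for wild-type. By median deviation the choroid plexus markers overlapped, with Nas2Del_Het_1024 at 0.04 and Nas2Del_WT_1026 at 0.02. The hippocampal markers also overlapped by median deviation, and the microglial ones did not. At an unadjusted p under 0.05 in edgeR, 3 of the choroid plexus markers, 4 of the microglial and 2 of the hippocampal markers were lower, against 9.15% of all genes tested in either direction. Of these lists, edgeR called 0 genes, and DESeq2 called 1, the choroid plexus gene *Ttr*.

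The wider dopamine and cyclic AMP pathway had no call either. It was read from a list of 33 genes for G protein subunits, subunits of protein kinase A, phosphatases, phosphodiesterases and other parts of the pathway, such as the enzyme *Maoa*. All 33 were tested, 0 were called by edgeR or DESeq2 and 0 had an unadjusted p under 0.05 in edgeR, against 0.00585%, 0.487% and 9.15% of all genes for edgeR calls, DESeq2 calls and that p. Their median log2 fold change was -0.02, with 14 above 0 and 19 below. The smallest p was that of *Gnai2*, an inhibitory G protein subunit, at a log2 fold change of -0.10 (SE 0.05, edgeR adjusted p = 0.562). Of the other 25 striatal neuron genes, 0 were called and 0 had an unadjusted p under 0.05, with 11 above 0, 14 below and a median of -0.01. This second set of striatal genes thus had a median on the other side of 0 from the 0.04 of the 34 genes, and the difference was not tested.

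Wild-type mouse Nas2Del_WT_1026 decided whether any of the 34 genes was called. Without it, edgeR called 3 of the 34, all higher in the *Slc13a4*+/- mice, against 223 of 17337 genes in all (1.29%), and DESeq2 called 6, all higher, against 720 of 11013 (6.54%). The wild-type mice left were then Nas2Del_WT_1016 and Nas2Del_WT_1018, the lower run of animal numbers. In these calls genotype therefore cannot be told apart from the run of animal numbers. The genes called by edgeR were *Actn2* (log2 fold change 0.24, SE 0.05, adjusted p = 0.0930), *Pde10a* (0.21, SE 0.04, adjusted p = 0.0961) and *Arpp21* (0.14, SE 0.03, adjusted p = 0.0995). DESeq2 called the same genes and also *Foxp1* (0.17, SE 0.05, adjusted p = 0.0300), *Strip2* (0.17, SE 0.05, adjusted p = 0.0353) and *Scn4b* (0.18, SE 0.06, adjusted p = 0.0458). In each of these the *Slc13a4*+/- mice lay above mice Nas2Del_WT_1016 and Nas2Del_WT_1018, and mouse Nas2Del_WT_1026 lay at or above the *Slc13a4*+/- level or inside its range. *Actn2* had 17.4, 17.6 and 17.5 CPM in the *Slc13a4*+/- mice, against 14.9, 14.7 and 18.0 CPM in the wild-type mice. *Arpp21* had 493, 502 and 502 CPM in the *Slc13a4*+/- mice, against 453, 456 and 515 CPM in the wild-type mice. *Foxp1* had 124, 128 and 126 CPM in the *Slc13a4*+/- mice, against 117, 111 and 137 CPM in the wild-type mice. The median log2 fold change over the 34 genes was 0.09 without mouse Nas2Del_WT_1026, with 28 above 0. It was -0.01 without wild-type mouse Nas2Del_WT_1018, with 17 above 0 and 17 below. When the run of animal numbers (Nas2Del_WT_1016 and Nas2Del_WT_1018 against the other 4) entered the fit, so that the *Slc13a4*+/- mice were set against Nas2Del_WT_1026 alone, it was -0.05, with 7 above 0 and 27 below, and 0 of the 34 were called, against 115 of 17873 genes in all (0.643%).

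**Figure D5:**
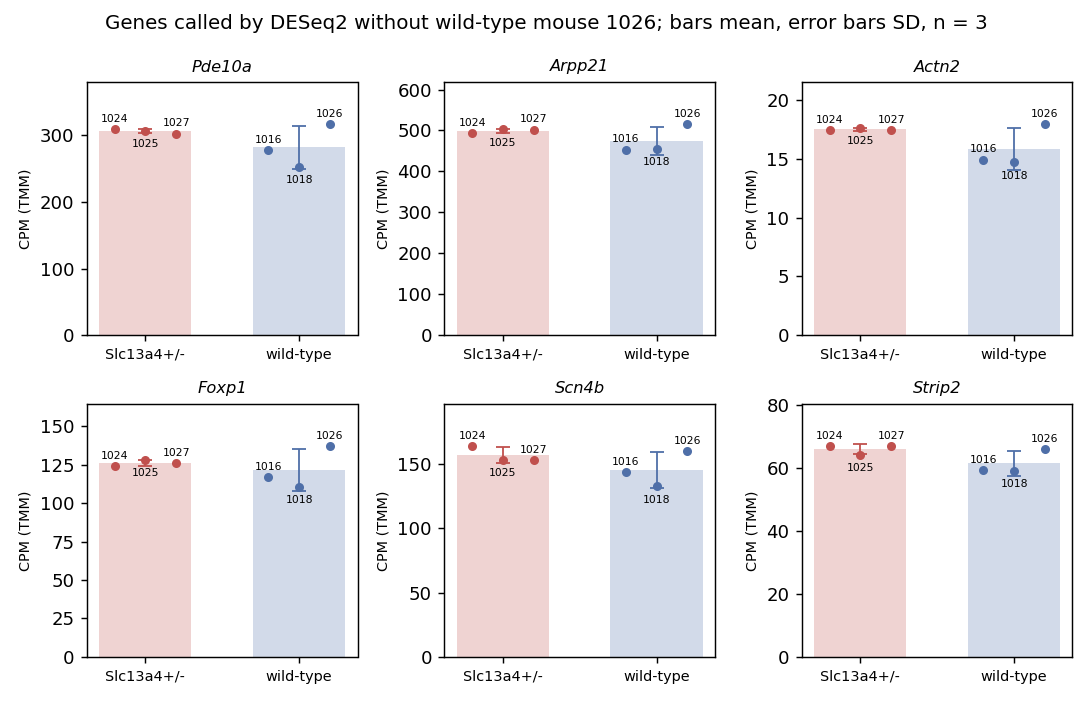
CPM after TMM normalization (y axis) of the 6 genes that DESeq2 called once wild-type mouse Nas2Del_WT_1026 was left out, in *Slc13a4*+/- (left) and wild-type (right) mice; points are mice with their numbers, bars show the mean with SD as error bars (n = 3 each). Mouse Nas2Del_WT_1026 lies apart from the lower pair Nas2Del_WT_1016 and Nas2Del_WT_1018 in every panel.

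Transcripts within the genes were read as shares of their gene's TPM. The files list 267 transcripts of the 34 genes, of which 83, in 30 genes, held over 5% of their gene's TPM on average. The shares did not overlap between the genotypes for 7 of the 83, against 11.9% of all such transcripts of the genes tested. *Pde10a* contributed 2 of them. Its longest abundant transcript, *Pde10a-202* (7769 bases), held 56.6%, 57.7% and 54.7% of the gene's TPM in the *Slc13a4*+/- mice, against 60.1%, 59.3% and 63.2% in the wild-type mice. The coding transcript *Ppp1r1b-201* held 51.6%, 52.8% and 54.3% in the *Slc13a4*+/- mice, against 62.2%, 54.7% and 54.7% in the wild-type mice. An annotated retained-intron transcript, *Ppp1r1b-202*, held most of the rest of *Ppp1r1b*, at 46.2%, 44.4% and 42.9% in the *Slc13a4*+/- mice, against 36.1%, 43.5% and 43.6% in the wild-type mice. *Gnal* had 3 coding transcripts with near-constant shares, and the main one, *Gnal-201*, held 57.8%, 57.8% and 57.2% in the *Slc13a4*+/- mice, against 57.9%, 57.6% and 59.0% in the wild-type mice. Salmon divides reads among overlapping transcripts by a model, so shares of transcripts that share most of their sequence are estimates with an error not given in the files used here.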

How the data were processed

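Forebrain RNA of 3 Slc13a4+/- and 3 wild-type mice at P20 was sequenced from stranded libraries depleted of rRNA. The authors quantified transcripts with Salmon (v1.2.0; mapping validation and GC bias options) and deposited expected counts per transcript, which need not be whole. The authors also deposited TPM, which divide by effective length and are relative to all transcripts of a mouse. The sources used here do not name the transcript set of the index. Of 117135 transcripts, 115973 were matched to GENCODE M21 (GRCm38) and the other 1162, with 0.620% to 0.645% of the counts, were left out. Expected counts were added up within each gene, then rounded. All 17096 genes that passed the default filter went into the quasi-likelihood F test of edgeR (version 4.0.16 in R 4.3.3) after TMM normalization, and p-values were adjusted over all of them by Benjamini-Hochberg, with a threshold of 0.1. The DESeq2 Wald test (DESeq2 1.42.0), the test of the paper, used average transcript lengths as offsets, which are inferred from the paper's import. Both tests were first run on simulated data. Deviations used log2(CPM + 0.01), and their SD is over mice. Every pair of libraries differed by more than the sampling noise (chi-square per gene 6.55 to 39.4). The text names all 34 listed genes, Slc13a4 and, of other lists, at most the 3 genes with the smallest p; *Chat*, *Sst*, *Bcl11b* and *Maoa* are given as list examples without values, and *Ddx3y* was added after the data were seen. The members and lists were chosen with earlier results of these data known. Promoters were read from a RefSeq table (GRCm38.p6). Python 3.11.15 joined the files and drew the plots.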

Additional observations from a re-analysis of the deposited data

How the results depend on the processing

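No gene of the list passed an adjusted p of 0.1 in edgeR with RLE normalization, with length offsets, with no filter on low counts, without retained-intron transcripts or with the run of animal numbers (Nas2Del_WT_1016 and Nas2Del_WT_1018 against the other 4) as a covariate, or in DESeq2. Leaving out 1 mouse gave 0 to 3 called genes in edgeR and, in fits added after the data were seen, 0 to 6 in DESeq2. Every call came without wild-type mouse Nas2Del_WT_1026, where genotype and the run of animal numbers coincided. The median log2 fold change over the 34 genes was -0.0077 to 0.094 when 1 mouse was left out and -0.047 with the covariate. Fold changes of 27 of the 34 genes changed sign in at least 1 fit, among them the largest, that of *Drd3*, and 7 kept theirs. This count leaves out the DESeq2 fits without 1 mouse. None of the fold changes passed the threshold in the fit where its sign changed. With the covariate they were -0.052 for *Drd2*, -0.029 for *Drd3*, -0.13 for *Adora2a*, -0.052 for *Pdyn*, -0.048 for *Pde10a*, -0.015 for *Pde1b*, -0.13 for *Gng7*, -0.12 for *Gnal*, -0.090 for *Adcy5*, -0.019 for *Rasd2*, -0.12 for *Foxp1*, -0.0017 for *Rarb*, -0.097 for *Meis2*, -0.031 for *Scn4b*, -0.00055 for *Strip2*, -0.10 for *Ankrd63*, -0.037 for *Actn2*, -0.046 for *Arpp21*. With length offsets in edgeR they were -0.0029 for *Drd2*, -0.037 for *Ebf1*, 0.041 for *Oprm1*, -0.069 for *Gpr149*, and in DESeq2 -0.0046 for *Drd2*, -0.039 for *Ebf1*, 0.039 for *Oprm1*, -0.070 for *Gpr149*. Without retained-intron transcripts they were 0.0011 for *Drd1*, 0.0038 for *Penk*. When 1 mouse was left out, those that changed sign ran over these ranges: *Drd1* -0.051 to 0.036, *Drd2* -0.047 to 0.035, *Adora2a* -0.058 to 0.13, *Penk* -0.038 to 0.044, *Pdyn* -0.0087 to 0.073, *Tac1* -0.042 to 0.039, *Ppp1r1b* -0.019 to 0.12, *Gng7* -0.030 to 0.12, *Gnal* -0.022 to 0.10, *Adcy5* -0.039 to 0.11, *Foxp1* -0.011 to 0.15, *Isl1* -0.022 to 0.088, *Meis2* -0.015 to 0.12, *Oprm1* -0.083 to 0.071, *Gpr6* -0.075 to 0.011, *Ankrd63* -0.033 to 0.13. Over all genes, edgeR called 1 in the fit reported, 0 with length offsets, 147 with no filter, 115 with the covariate and up to 223 without 1 mouse, and DESeq2 called 34 to 720 without 1 mouse. The adjusted p of *Slc13a4* ran between 0.0021 and 0.858 over the alternatives. The causes were not tested, apart from the covariate, which by construction sets the *Slc13a4*+/- mice against mouse Nas2Del_WT_1026 alone. No paired analysis was possible because the sources used here do not give the litter of each mouse. Counting error weighs most on *Drd3*, with 28 to 54 counts per mouse.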
